A study of Mus musculus with 6 samples.

Results

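The comparison set a library of mouse bone-marrow-derived macrophages given IL4 with betulin directly against a library given IL4 with 25-HC, without passing through the library given IL4 alone. It used 2 of the 6 libraries of the series, and 11898 of the 16775 genes in the deposited tables had enough reads to be compared, meaning that their count, divided by the library total and expressed as CPM, reached 1 in 1 or more of the 6 libraries. Both libraries came from bone marrow of C57BL/6 mice cultured for 5 days in 10 ng/ml M-CSF, which makes marrow progenitors become macrophages. IL4, a cytokine of allergic responses that induces alternative activation, was then applied together with the compound for 24 hours. The other 4 libraries held IL4 alone and IL4 with fatostatin, PF429424 or 1,10-Phen, so every culture of the series carried IL4 and none was left without it. The labels give the exposure time, which was the same, but no dose for either compound, so the 2 doses cannot be taken as matched.

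Each treatment was sequenced once. No difference below has a replicate check or a p-value, and each value compares 2 libraries and not 2 conditions. The betulin library held 20967630 estimated counts and the 25-HC library 21169705, within the range of 20181425 to 21169705 over the 6 libraries, so 3 counts correspond to 0.141 and 0.137 CPM in these 2. CPM values below were scaled with TMM factors over the 6 libraries. Ratios are log2 values of the 25-HC library over the betulin library with a prior count of 2, so a positive value means a higher level with 25-HC. The bracketed interval after a ratio is its exact Clopper-Pearson 95% interval, which covers counting error only and not the variation between cultures. Calls of higher or lower with 25-HC required a log2 ratio of 1 or more in either direction with 0 outside the interval.

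Betulin is a plant triterpenoid known as a blocker of the processing of SREBP proteins, the membrane-bound transcription factors that switch on cholesterol uptake and synthesis and fatty acid synthesis when the cell is short of sterol. Nuclear receptors of the LXR family work on the opposite side of the balance: they bind oxysterols and switch on cholesterol export through the transporters Abca1 and Abcg1. Metallothioneins are small zinc- and copper-binding proteins whose genes are switched on by the zinc-sensing factor MTF1, and Retnla, Chil3, Arg1 and Mrc1 are genes long used to mark alternative activation in mouse macrophages.

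The upstream windows of 6 genes that differed between the libraries are shown here because each gene belongs to a group with a known DNA element. They are the 250 bases before 1 annotated start of each gene, 5′ to 3′ on the gene's own strand, from the RefSeq promoter table on GRCm38.p6, with capitals marking matches on either strand. Mt2 (chr8:94172368-94172617, plus strand), Mt1 (chr8:94178839-94179088, plus strand) and Slc30a1 (chr1:191906531-191906780, plus strand) were searched for the core of the metal response element, TGCGCNC or TGCACNC. At least 1 match is found in 21.4% of the 32851 promoter windows of the table and at least 3 in 1.26%. Abca1 (chr4:53159896-53160145, minus strand) was searched for the LXR type of paired half-sites, AGGTCA and AGGTCA with 4 bases between them and 3 mismatches allowed, which 18.5% of windows hold. Retnla (chr16:48842359-48842608, plus strand) was searched for the STAT type of palindrome, TTCNNNNGAA, which 5.85% of windows hold. Chac1 (chr2:119350992-119351241, plus strand) was searched for TGATGNAA, the core read by ATF4 with C/EBP proteins, which 3.45% of windows hold. Mt2 had 3 matches and the other 5 had 1 each. For Mt1, Slc30a1 and Abca1 the table's start lies inside the RefSeq gene span, so these 3 windows overlap the start of that span.
Mt2: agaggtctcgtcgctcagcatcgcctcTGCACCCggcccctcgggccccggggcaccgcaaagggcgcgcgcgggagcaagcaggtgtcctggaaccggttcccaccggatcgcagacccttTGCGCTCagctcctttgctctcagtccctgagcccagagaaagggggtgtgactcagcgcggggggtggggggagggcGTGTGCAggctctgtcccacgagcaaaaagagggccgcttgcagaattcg
Mt1: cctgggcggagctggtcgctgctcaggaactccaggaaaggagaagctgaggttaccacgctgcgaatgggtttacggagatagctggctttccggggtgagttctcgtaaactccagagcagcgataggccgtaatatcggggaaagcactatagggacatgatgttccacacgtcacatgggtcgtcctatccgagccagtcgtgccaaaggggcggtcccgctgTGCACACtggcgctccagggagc
Slc30a1: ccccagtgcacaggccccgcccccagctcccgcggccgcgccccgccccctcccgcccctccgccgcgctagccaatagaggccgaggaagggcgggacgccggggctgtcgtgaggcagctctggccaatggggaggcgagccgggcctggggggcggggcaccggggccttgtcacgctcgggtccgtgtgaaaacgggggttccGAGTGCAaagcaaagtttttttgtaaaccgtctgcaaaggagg
Abca1: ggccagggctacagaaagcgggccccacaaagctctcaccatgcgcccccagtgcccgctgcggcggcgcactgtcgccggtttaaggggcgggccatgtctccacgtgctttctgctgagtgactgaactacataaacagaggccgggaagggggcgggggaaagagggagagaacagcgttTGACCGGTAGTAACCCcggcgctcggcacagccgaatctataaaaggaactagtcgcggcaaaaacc
Retnla: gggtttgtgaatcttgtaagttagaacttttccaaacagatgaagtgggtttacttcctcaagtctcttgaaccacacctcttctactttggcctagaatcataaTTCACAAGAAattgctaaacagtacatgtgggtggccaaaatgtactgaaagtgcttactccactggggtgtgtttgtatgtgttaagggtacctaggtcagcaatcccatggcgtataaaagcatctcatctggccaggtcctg
Chac1: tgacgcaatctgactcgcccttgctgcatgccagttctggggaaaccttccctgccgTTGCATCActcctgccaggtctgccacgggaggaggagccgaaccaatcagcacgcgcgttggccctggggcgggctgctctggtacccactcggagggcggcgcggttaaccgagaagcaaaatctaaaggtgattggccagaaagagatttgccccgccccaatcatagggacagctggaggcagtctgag
A match is a string of letters and not a measured binding site. With the same searches, Pdcd1lg2 and Asns had 1 match each, while Mylip, Pltp, Mrc1 and Trib3 had none in their windows.

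Between the 2 libraries 432 genes were called, 3.63% of the 11898 compared. Of these 143 were higher with 25-HC, 1.2% of all genes, and 289 were lower, 2.43%. These 2 shares are the background for the counts of called list and family members below. On log2(FPKM + 1), the deposited length-scaled values, the split was 63 higher and 83 lower. That count used the 2-fold limit without the interval, and the added 1 shrinks the ratios of low FPKM, so the rule also differed. The median ratio over all genes was -0.00, and 83.6% of genes lay within 0.5 of 0 on the log2 scale. Differences of at least 4-fold were held by 22 of the higher and 41 of the lower genes. Counting calls by the same rule for each of the 15 pairs of libraries, betulin and 25-HC were the 4th closest pair. The fewest calls, 229, separated IL4 alone from fatostatin, and the most, 2311, separated IL4 alone from 1,10-Phen.

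**Figure D1:**
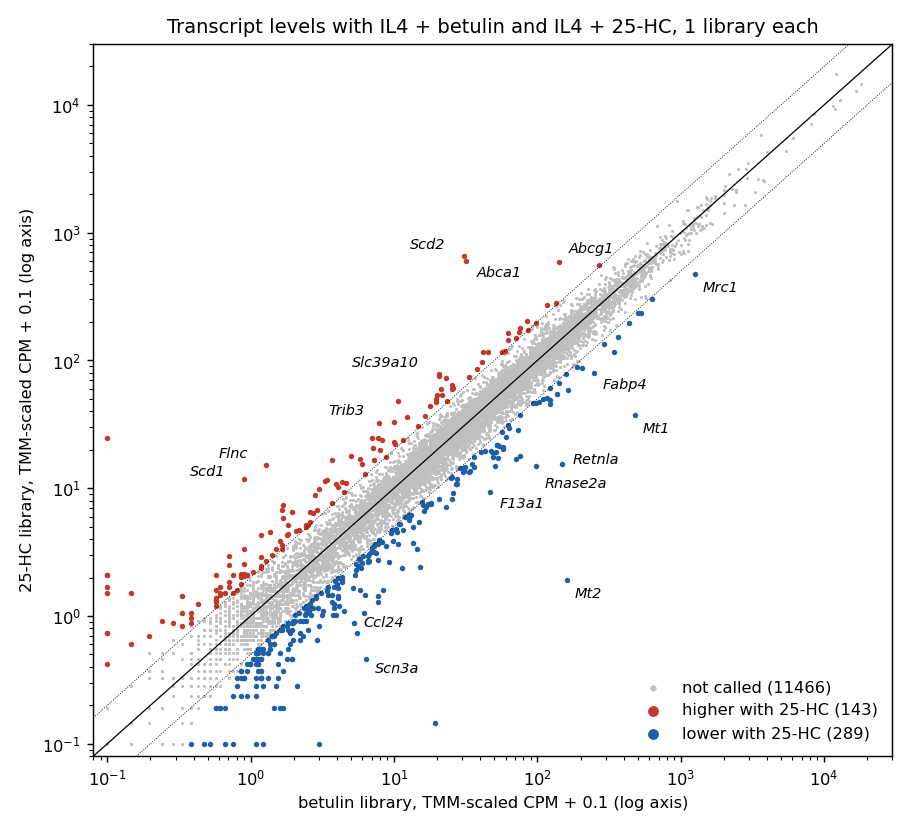
Each point is 1 of 11898 genes, with its level in the betulin library on the x axis and in the 25-HC library on the y axis, both as TMM-scaled CPM + 0.1 on log axes. The solid line marks equal levels, the dotted lines a 2-fold difference, red the 143 genes called higher and blue the 289 called lower with 25-HC. Scd2 and Abca1 stand farthest above the line among the labelled genes, and Mt2 farthest below it.

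The called genes were also placed against the other 4 libraries. Of the 143 genes higher with 25-HC, 90 stood higher in the 25-HC library than in all 4 others, and 41 stood lower in the betulin library than in all 4 others. In 17 of them both held. Of the 289 genes lower with 25-HC, 166 stood lower in the 25-HC library than in all 4 others, while 53 stood higher in the betulin library than in all 4 others. In 93 of the 289 neither library lay outside the others, and the difference fell within the range that the remaining treatments spanned. Genes were called on the difference between the betulin and 25-HC libraries, which itself favours such outer places. The same counts were not taken over all genes, so these are descriptions only. The other 4 libraries are themselves treated with other compounds or with IL4 alone and are not replicates.

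Cholesterol export genes were among those with the highest ratios. Of 12 LXR target genes compared, 4 were higher with 25-HC and none lower, with a median of 0.23 against -0.00 over all genes. Abca1, which loads cellular cholesterol onto apolipoprotein A-I, stood at 603 CPM with 25-HC and 31.7 with betulin. Its level was 36.1 CPM with IL4 alone, 46.6 with fatostatin, 5.56 with PF429424 and 53.9 with 1,10-Phen. The 25-HC library therefore lay above the other 5 and the betulin library among them, at a ratio of 4.24 [4.14, 4.36] or 19.0-fold. Abcg1, which passes cholesterol to high-density lipoprotein, stood at 589 CPM with 25-HC and 142 with betulin, and at 108 with IL4 alone, 124 with fatostatin, 85.5 with PF429424 and 88.9 with 1,10-Phen. Its ratio was 2.05 [1.99, 2.11], with the 25-HC library again above the other 5. Mylip, a ubiquitin ligase of the LXR pathway, stood at 48.1 CPM with 25-HC, 35.0 with 1,10-Phen and between 6.2 and 16.6 in the other 4, with 10.6 in the betulin library, a ratio of 2.17 [1.97, 2.39]. Pltp, the phospholipid transfer protein, was at 16.7 against 7.13 CPM, a ratio of 1.21 [0.95, 1.51]. The other 8 members were not called. Lpl, lipoprotein lipase, was at 5863 CPM with 25-HC and 3652 with betulin, a ratio of 0.68, and Apoe was near equal at -0.13. The receptor gene Nr1h3, which encodes LXR alpha, had the opposite sign, at 29.7 CPM with 25-HC and 45.8 with betulin.

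Fatty acid synthesis and desaturation genes were higher with 25-HC in 4 of 17 compared, with none lower and a median of 0.14. Scd2, a stearoyl-CoA desaturase that makes monounsaturated fatty acids, had the largest ratio of all the listed genes in that direction. It stood at 659 CPM with 25-HC, 134 with 1,10-Phen, 30.9 with betulin, 25.9 with IL4 alone, 19.7 with fatostatin and 10.9 with PF429424. The ratio was 4.41 [4.30, 4.53], or 21.3-fold. Its paralog Scd1 was scarce, with 255 counts in the 25-HC library and 17 in the betulin library, and its ratio was 3.71 [3.16, 4.67]. The 2 genes are close relatives, and the sources used here do not say how reads common to both were divided. Acaca, the acetyl-CoA carboxylase of the first committed step, was at 97.9 against 40.7 CPM, a ratio of 1.26 [1.15, 1.38]. Acsl3, a long-chain acyl-CoA synthetase, was called higher at 1.05. Fasn, the fatty acid synthase, stood just short of the call at 0.998, with 184 CPM against 92.3, and in the 25-HC library it was above the other 5. Srebf1, which encodes the SREBP that favours fatty acid genes, was at 83.7 against 69.7 CPM, a ratio of 0.26.

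Genes of cholesterol synthesis differed far less, and mostly in the other direction. Of 20 compared, 18 lay below 0 and the median was -0.31, with 1 call, lower with 25-HC, and none higher. Fdps, which makes farnesyl diphosphate, stood at 13 CPM with 25-HC and 24.8 with betulin, short of a call at -0.93 [-1.14, -0.72]. The other libraries were at 18.8 CPM with IL4 alone, 19.6 with fatostatin, 13.4 with PF429424 and 5.94 with 1,10-Phen, so the betulin library was the highest of the 6. Dhcr7, a late reductase of the pathway, was at 31.2 against 50.2 CPM, a ratio of -0.68, and the demethylase Cyp51 was at 11.2 against 17.5, a ratio of -0.64. Hmgcs1, a synthase early in the pathway, was at -0.29, and the epoxidase Sqle at -0.14.

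Sterol uptake and movement genes were lower with 25-HC in 3 of 12 compared, with none higher and a median of -0.18. Stard4, a carrier of cholesterol between membranes, stood at 6.06 CPM with 25-HC and 13 with betulin, and at 17.5 with IL4 alone, 13.2 with fatostatin, 4.78 with PF429424 and 3.91 with 1,10-Phen. Betulin lay close to fatostatin, and 25-HC nearer the low pair. The ratio of Stard4 was -1.09 [-1.41, -0.80], and on log2(FPKM + 1) its difference was -0.80, short of a call. Lrp8, a receptor for apolipoprotein E, was at 3.55 against 7.27 CPM, a ratio of -1.01 [-1.44, -0.63]. Srebf2 was at 63.8 CPM with 25-HC and 82.2 with betulin, a ratio of -0.37, and Insig1, which retains SREBP in the endoplasmic reticulum, was at -0.22. Of 11 cholesterol esterification and oxysterol genes 1 was higher and 1 lower with 25-HC, and 9 lay below 0. The lower one was Osbpl5, an oxysterol-binding protein relative, at -1.12 [-1.72, -0.62]. Soat2, which esterifies cholesterol for storage, was the higher one at 7.33 against 1.59 CPM, a ratio of 2.14 [1.66, 2.78], while the abundant Soat1 was at -0.20. Levels of Soat2 were 6.55 CPM with PF429424 and 14.6 with 1,10-Phen, and 0.885 with IL4 alone and 1.08 with fatostatin. Fabp4 and Fabp5, cytosolic carriers of fatty acids, were the called members among 21 lipid droplet and fatty acid use genes. Fabp4 stood at 79.4 CPM with 25-HC and 246 with betulin, a ratio of -1.63 [-1.71, -1.56], and betulin was the highest of the 6 libraries, with IL4 alone at 93.3.

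**Figure D2:**
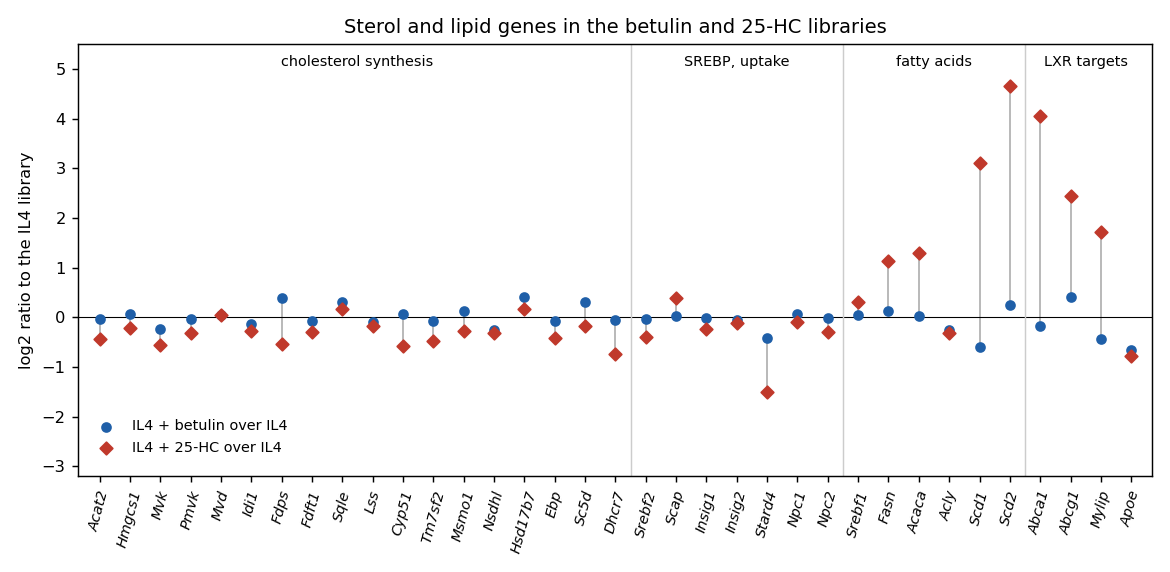
Log2 ratios to the IL4 library (y axis) of sterol and lipid genes (x axis) in the betulin library (blue circles) and the 25-HC library (red diamonds), joined by a grey line for each gene; both sets of ratios share the IL4 library. The 2 points lie close together for the cholesterol synthesis genes shown and far apart for Scd1, Scd2, Abca1, Abcg1 and Mylip.

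Metallothionein genes held the largest difference of any listed gene in favour of betulin. Mt2 stood at 162 CPM with betulin and 160 with 1,10-Phen, and at 1.96 with IL4 alone, 8.80 with fatostatin, 1.82 with 25-HC and 6.10 with PF429424. The betulin library held 3451 counts of it and the 25-HC library 40, a ratio of -6.40 [-6.96, -6.02], or 84.4-fold higher with betulin. Mt1, its neighbour on chromosome 8, followed the same order at 483 CPM with betulin and 479 with 1,10-Phen against 72.7, 102, 37.4 and 73.0 with IL4 alone, fatostatin, 25-HC and PF429424. Its ratio was -3.69 [-3.80, -3.59]. Slc30a1, which exports zinc from the cell, also had betulin and 1,10-Phen above the rest. It stood at 137 and 164 CPM in those 2 and between 50.7 and 55.1 in the other 4, a ratio of -1.33 [-1.43, -1.24]. Slc39a10, which imports zinc, ran the other way with betulin alone at the bottom. It stood at 20.5 CPM with betulin and 77.6 with 25-HC, a ratio of 1.92 [1.77, 2.08], while the other 4 libraries spanned 58.6 to 119. For this gene betulin and 1,10-Phen were the lowest and the highest of the 6. The 13 other members of the metal list were not called, and the median of its 17 members was -0.02, which became 0.01 with library totals. The Mt2 and Mt1 windows printed above hold the metal element core, and Slc30a1 holds it as well.

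Genes of alternative activation were divided, with 20 of 33 compared below 0 and 13 above, the highest at 0.91. The median was -0.27, and 8 were called lower with 25-HC and none higher. In all 8 the order of these 3 libraries was the same, highest with IL4 alone, then betulin, then 25-HC. Retnla, the secreted protein FIZZ1, stood along that order at 471, 147 and 15.3 CPM, and stood at 318 with fatostatin, 10.9 with PF429424 and 23.5 with 1,10-Phen. The ratio between 25-HC and betulin was -3.26 [-3.44, -3.11], or 9.61-fold higher with betulin. Rnase2a, an eosinophil-associated ribonuclease, stood at 97.0 CPM with betulin and 14.7 with 25-HC, against 233 with IL4 alone, 146 with fatostatin, 21.4 with PF429424 and 18.7 with 1,10-Phen. In both genes betulin lay between a high pair and a low trio of libraries. Ccl24, an eosinophil attractant, had the same pattern at lower levels, 5.16 against 0.774 CPM and a ratio of -2.59 [-3.57, -1.99]. Mrc1, the mannose receptor, was lowest of the 6 libraries with 25-HC at 472 CPM, against 1256 with betulin and 2071 with IL4 alone, a ratio of -1.41 [-1.45, -1.38]. Pdcd1lg2, the checkpoint ligand PD-L2, was likewise lowest with 25-HC, at 8.06 CPM against 25.2, a ratio of -1.63 [-1.90, -1.40]. The other 3 called members were Ear2 at -1.63, the transferrin receptor Tfrc at -1.57 and Cd83 at -1.05. Rnase2a and Ear2 belong to a family of near-identical copies, so their separate counts are uncertain. The remaining 25 members, Arg1 and Chil3 among them, were not called. Arg1, arginase, stood at 2072 CPM with 25-HC and 3296 with betulin, a ratio of -0.67, and Chil3, the chitinase-like Ym1, at 1653 against 2792, a ratio of -0.76.

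Macrophage identity genes showed a similar split between a called group and an uncalled remainder. Of 23 compared, 8 were lower with 25-HC and none higher, with a median of -0.27. They included the chains of complement C1q, with C1qa at 87.3 against 204 CPM and a ratio of -1.22 [-1.30, -1.15], C1qb at -1.06 and C1qc at -1.10. They also held Mrc1 again, the sialoadhesin gene Siglec1 at -1.12 and the transcription factor Maf at 28.5 against 72.9 CPM, a ratio of -1.35 [-1.49, -1.22]. Cd163, the haemoglobin scavenger receptor, was at -1.90 with 20 and 78 counts, and P2ry12, a receptor for ADP, at -2.43 with 4 and 30 counts. Csf1r, the receptor for M-CSF, was near equal at 1060 and 1217 CPM, a ratio of -0.20, and Adgre1, the F4/80 antigen, stood at 394 and 586, a ratio of -0.57. Over the 23 members 16 lay below 0 and 7 above, the highest at 0.96. In a bulk culture, fewer cells of a kind and less RNA per cell cannot be told apart.

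Markers of other cell types were read in the same libraries. Summed over the 14 compared neutrophil markers the level was 823 CPM with betulin and 831 with 25-HC. The sums ranged from 469 to 914 over the 6 libraries. These near-equal sums held members that differed both ways, 6 above 0 and 8 below. S100a8 was at -0.73 and Mpo at -0.71, against Lcn2 at 0.74 and Ltf at 0.53. These 4 stood at 14.7 to 46.3 CPM with betulin and 9.65 to 64.8 with 25-HC. Most of both sums therefore came from other members. With 1,10-Phen, which had the highest sum, the same 4 stood at only 0.375 to 3.48 CPM. Whether the sums follow neutrophil content was not tested. Only the scarce Retnlg was called, higher with 25-HC at 1.19. The 9 stromal markers summed to 51.1 and 83.7 CPM, with Col1a1 at 0.95 and Col1a2 at 0.92 in log2 ratio. None of the 9 was called, 5 lay below 0 and 4 above, and the median was -0.11. Of the 14 lymphocyte markers 3 were compared, summing to 6.85 and 5.74 CPM, and 10 lay below the filter with at most 9 and 15 counts. Of the 12 mast cell, basophil and eosinophil markers 3 were compared, summing to 8.91 and 16.5 CPM, and Hdc, histidine decarboxylase, was called higher with 25-HC at 1.48. Of the 12 erythroid and megakaryocyte markers 3 were compared, and 2 of these, Pf4 and Ppbp, were called lower with 25-HC. The 10 monocyte markers summed to 97.9 and 58.3 CPM, and F13a1 and Vcan were called lower. Most of the difference in the sum came from F13a1, at 46.8 CPM with betulin and 9.29 with 25-HC. The list median was -0.06, with 6 members below 0 and 4 above, Ccr2 among the latter at 0.52. The 5 dendritic markers compared summed to 1112 and 1513 CPM, nearly all of it from Itgax, which macrophages also express. The part of these cells in the differences was not tested.

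Antigen presentation and interferon genes lay mostly below 0, MHC class II genes by the most. Of 13 MHC class II genes 12 were below 0, with a median of -0.57, and the only call was Ciita, the master regulator of the class. Ciita stood at 1.14 CPM with 25-HC and 3.70 with betulin, a ratio of -1.62 [-2.41, -1.04], and at 9.08 with IL4 alone. H2-Ab1 was at 11.8 against 19.6 CPM, a ratio of -0.72. The 19 class I genes had no call and a median of -0.17. Among 25 interferon response genes 2 were lower with 25-HC, Irf1 at -1.06 and Ifit1 at -1, and the median was -0.26.

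Inflammatory and chemokine genes did not move as a block. Of 15 inflammatory cytokines and mediators 2 were higher with 25-HC and none lower, with a median of 0.45. Il1a, which encodes interleukin 1 alpha, stood at 10.8 CPM with 25-HC and 4.50 with betulin, a ratio of 1.25 [0.92, 1.62], and was highest of the 6 libraries with 25-HC. Il1b had 45 and 16 counts and a ratio of 1.34, and Tnf was at 27.2 against 14.4 CPM, a ratio of 0.91. Of 18 chemokine ligands 6 were lower with 25-HC and none higher, with a median of -0.31. They were Ccl24, Ccl12 at -2.10, Ppbp at -1.27, Ccl6 at -1.19, Pf4 at -1.15 and Ccl8, which had 12 counts with betulin and 0 with 25-HC. Ccl6, abundant in macrophages, was at 233 against 531 CPM, and Pf4, platelet factor 4, at 197 against 439. Among 23 scavenger and lectin receptors, Olr1, a receptor for oxidised LDL, and Clec5a were higher at 1.80 and 1.23. Olr1 stood at 11.3 against 3.19 CPM, the highest of the 6 libraries. The 6 lower members were Cd163, Mrc1, Clec4n at -1.47, Clec4a1 at -1.14, Clec4a3 at -1.09 and Clec4b1 at -1.01. The Clec4a and Clec4b genes are close paralogs, so their separate values are uncertain.

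**Figure D3:**
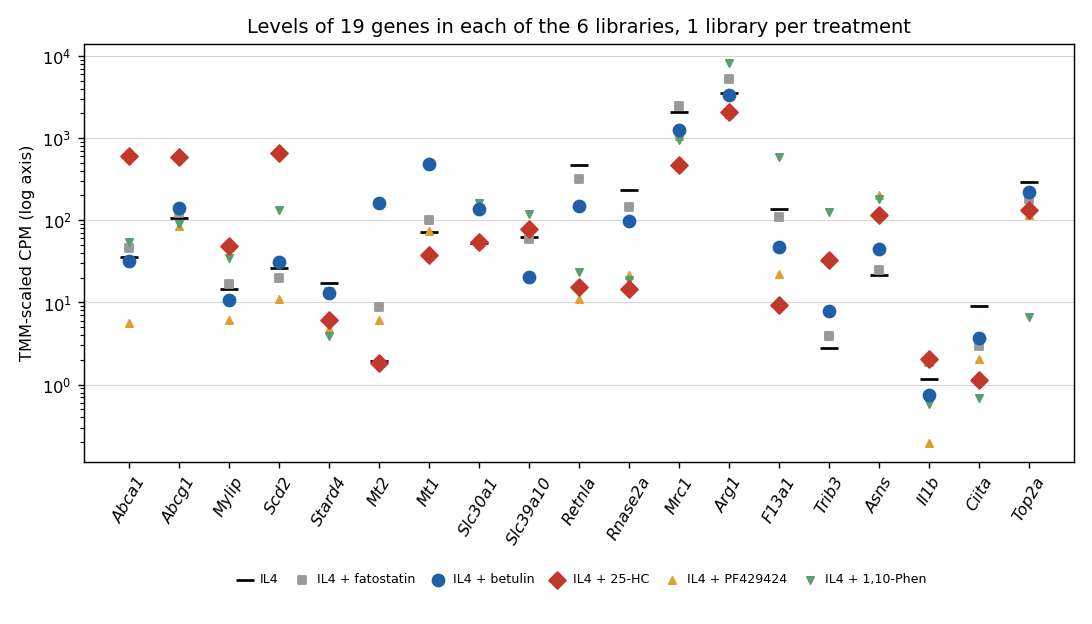
TMM-scaled CPM on a log axis (y axis) of 19 genes (x axis) in each of the 6 libraries, 1 symbol per library, with no error bars because each treatment has 1 library. Betulin (blue circles) lies with 1,10-Phen (green triangles) for Mt1, Mt2 and Slc30a1, and 25-HC (red diamonds) stands above the other 5 for Abca1, Abcg1 and Scd2.

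Genes of the ATF4 stress response, which is switched on when cells lack amino acids or fold proteins poorly, were higher with 25-HC in 7 of 32 compared and lower in none. The median was 0.63, and 27 of the 32 lay above 0. Trib3, a pseudokinase target of the pathway, stood at 32.6 CPM with 25-HC and 7.78 with betulin, against 2.79 with IL4 alone, 3.91 with fatostatin, 34.4 with PF429424 and 128 with 1,10-Phen. Its ratio was 2.05 [1.82, 2.32]. Asns, asparagine synthetase, was ordered the same way up to 25-HC, at 21.7 CPM with IL4 alone, 25.1 with fatostatin, 45.0 with betulin, 116 with 25-HC, 202 with PF429424 and 183 with 1,10-Phen. In both genes betulin stood above IL4 alone and below 25-HC, and the ratio of Asns was 1.36 [1.25, 1.47]. Chac1, which degrades glutathione, was at 6.60 against 1.55 CPM, a ratio of 2.03 [1.54, 2.69]. Ddit3, which encodes CHOP, was at 73.8 against 33.1 CPM, a ratio of 1.15 [1.03, 1.29]. The other called members were Slc6a9 at 1.79, Aldh1l2 at 1.37 and Mthfd2 at 1.00. Atf4 itself was at 453 against 301 CPM, a ratio of 0.59, and Gdf15 had the opposite sign at -0.68. Of 22 genes of the endoplasmic reticulum unfolded protein response none was called, with a median of -0.11, and of 14 heat shock chaperones none was called, with a median of -0.02, which became 0.01 with library totals.

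Cell cycle genes lay mostly below 0, with 1 call in each of the 2 lists. These calls were 2.86% of the G2/M and 3.03% of the DNA replication genes, near the 2.43% called lower among all genes. All 35 G2/M genes compared lay below 0, between -1.10 and -0.23, with a median of -0.61, against 5960 of the 11898 genes overall. Only Nuf2, a kinetochore subunit, was called, at 14.5 against 31.2 CPM and -1.10 [-1.30, -0.91]. Top2a, the topoisomerase of dividing cells, stood at 133 CPM with 25-HC and 219 with betulin, a ratio of -0.72. In the other libraries it was at 289 CPM with IL4 alone, 183 with fatostatin, 114 with PF429424 and 6.69 with 1,10-Phen. Of 33 DNA replication genes 30 lay below 0, with a median of -0.39, and thymidine kinase Tk1 was the only call at -1.18 [-1.39, -0.98].

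Growth factor, matrix and mediator genes moved in both directions. Of 27 extracellular matrix, coagulation and repair genes 3 were higher and 5 lower with 25-HC. F13a1, coagulation factor XIII A, stood at 9.29 CPM with 25-HC and 46.8 with betulin, a ratio of -2.32 [-2.56, -2.12], with 135 in IL4 alone, 109 with fatostatin, 22 with PF429424 and 589 with 1,10-Phen. The 25-HC library was the lowest of the 6. Gas6, a ligand of the receptors for apoptotic cells, was at 14.9 against 50.9 CPM, a ratio of -1.77 [-1.96, -1.59]. Thbs1 at -1.07, Vcan at -1.04 and Vegfb at -1.01 were also lower. Vegfa, the angiogenic growth factor, was higher at 164 against 62.7 CPM, a ratio of 1.39 [1.30, 1.48], while 1,10-Phen stood at 343. Tgfbi and Pdgfb were both higher at 1.21. Vegfa was the only call among 33 hypoxia and glycolysis genes, whose median was 0.02. Of 17 prostaglandin and leukotriene genes the receptor Ptger4 was higher at 1.01. The prostaglandin dehydrogenase Hpgd at -1.37, the synthase Hpgds at -1.26 and the phospholipase Pla2g15 at -1.01 were lower. Among 13 purinergic genes 4 were lower, the receptors P2ry12, P2ry13 at -1.25 and P2ry14 at -1.08 and the ATP-degrading Entpd1 at -1.13. Mmp9, a gelatinase, was higher at 1.45 and the metalloproteinase inhibitor Timp2 lower at -1.33 [-1.44, -1.23].

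Oxidative stress and lysosomal genes were mostly near equal. Iron genes were less so, with 61.1% within 0.5 of 0 against 83.6% of all genes. Of 26 NRF2 and glutathione genes 3 were lower with 25-HC, with a median of -0.25. Cbr2, a carbonyl reductase, stood at 0.956 CPM with 25-HC and 6.10 with betulin, against 22.4 with IL4 alone, a ratio of -2.56 [-3.41, -2]. The others were Gstm2 at -1.35 and Ephx1 at -1.34. Among 18 iron genes Tfrc was the only call, at 116 CPM with 25-HC and 344 with betulin, against 571 with IL4 alone and 729 with fatostatin. The 25-HC library was the lowest of the 6 for it. Of 20 p53 targets and cell cycle inhibitors only Sesn1 was called, at -1.5. Of 34 lysosomal genes none was called, 94.1% lay within 0.5 of 0, and 31 were below 0 with a median of -0.24. Of 20 immediate early factors only Fosl1 was called, at 1.77, and of 17 chemoattractant receptors only Fpr2, at 1.18. None of the 6 aryl hydrocarbon receptor genes compared was called.

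**Figure D4:**
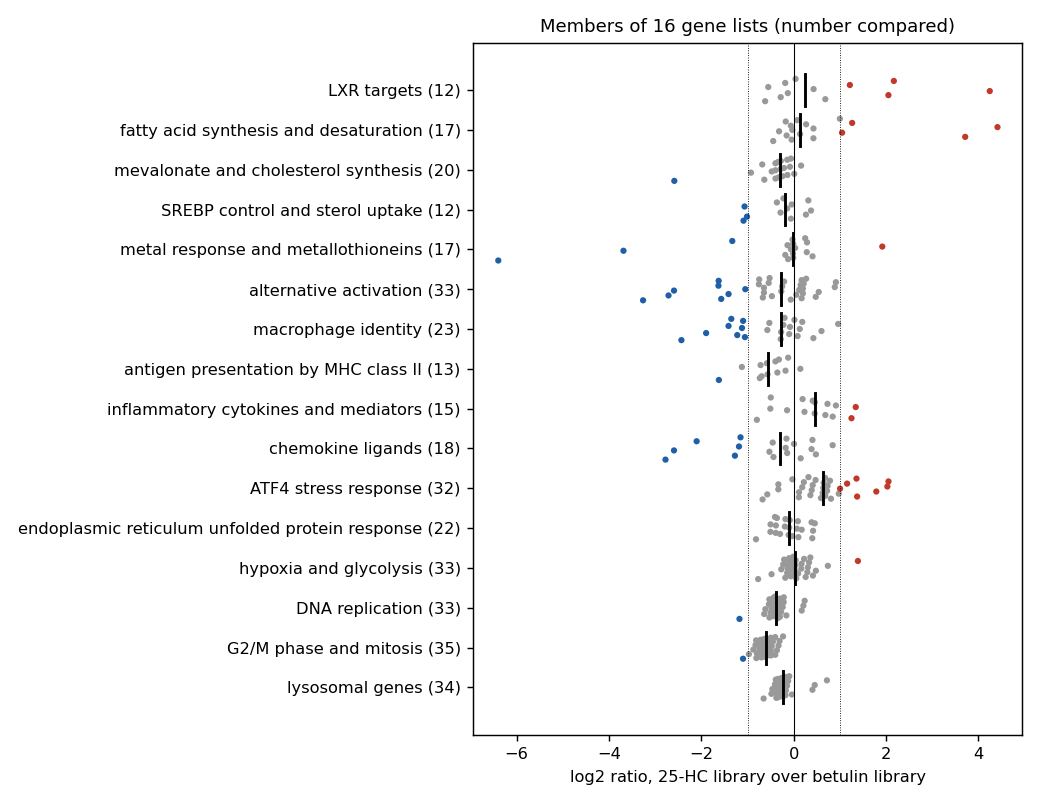
Log2 ratio of the 25-HC library over the betulin library (x axis) for the compared members of 16 gene lists (y axis, number compared in brackets). Points are genes, red called higher and blue called lower with 25-HC, the black bar is the list median and dotted lines mark a 2-fold difference; the G2/M genes all lie below 0, and the metal list spans -6.40 to 1.92.

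Outside the lists, the largest ratios under the naming rule (a standard gene symbol, 50 counts and 5 CPM or more in either library) belonged to varied functions. Flnc, an actin cross-linker of muscle, stood at 15.2 CPM with 25-HC and 1.17 with betulin, a ratio of 3.59 [3.11, 4.34], and no other library was above 3.99. Rgs16, which shuts off G protein signals, was at 2.19 [1.86, 2.60], carbonic anhydrase Car2 at 1.88, the corepressor Hr at 1.84 and the vasoconstrictor Edn1 at 1.83. Car2 was at 75.1 against 20.4 CPM, with the other 4 libraries between 12.2 and 26.7. In the other direction Scn3a, a sodium channel, stood at 0.364 CPM with 25-HC and 6.28 with betulin, with 8 and 134 counts, and at 24.9 with IL4 alone. Its ratio was -3.79 [-5.35, -3.09], but on log2(FPKM + 1) its difference was -0.75, with FPKM of 0.05 with 25-HC and 0.77 with betulin. Cldn11, a claudin of tight junctions, was at -2.92 [-4.01, -2.29], Lrrc17 at -2.65, the transporter Slc36a2 at -2.46, Msx3 at -2.38, Cited4 at -2.26 and Ms4a6b at -2.12.

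Some genes stood on opposite sides of the IL4 library. Lrrc17 was at 15.1 CPM with betulin, 4.98 with IL4 alone and 2.32 with 25-HC, and Cited4, a coactivator-binding protein, at 11.3, 3.63 and 2.28. Ccl12, a monocyte attractant, was at 6.19, 2.47 and 1.37 CPM in that order, and the ribosomal protein paralog Rpl22l1 at 33.6, 22.2 and 13.5. The reverse order was held by Fgr, a Src family kinase of myeloid cells, at 12.1 CPM with betulin, 22.4 with IL4 alone and 35.9 with 25-HC. Scimp, an adaptor in antigen-presenting cells, followed it at 5.72, 9.41 and 16.9 CPM. Slc9a3r2, a scaffold protein, was at 2.72, 4.19 and 8.70.

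Other genes were nearly equal in the 2 libraries and far from IL4 alone. Inhba, a subunit of activin, stood at 12.8 CPM with betulin and 14.3 with 25-HC, against 2.19 with IL4 alone and between 3.64 and 4.12 in the remaining 3. Gem, a small GTPase, was at 7.74 and 7.33 CPM against 0.885, and Rtn4r, the Nogo receptor, at 6.75 and 6.15 against 0.605. Akap2, an anchor for protein kinase A, was at 7.27 and 7.19 CPM against 1.26. Below IL4 alone, the integrin gene Itgal was at 59.7 and 70.0 CPM against 161, and Itga1 at 5.96 and 6.56 against 16.7. Dmpk was at 33.1 and 34.9 CPM against 80.2, and the sialic acid receptor Cd33 at 7.69 and 7.24 against 17.7. The intervals of 7 of these 8 ratios included 0, and that of Itgal, 0.23 [0.12, 0.34], did not. These genes were picked for being alike in the 2 libraries.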

How the data were processed

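RNA from macrophage cultures (1 ug each) went into 6 libraries, 1 per treatment. The deposited tables hold, per the file headers, an estimated count (expected count) for each gene that is not scaled between libraries, and FPKM, scaled by the authors to transcript length and library size. RSEM 1.2.12, Bowtie2, HISAT2 and DESeq2 appear in the submitters' processing notes with no roles, and the sources used here do not give the strand setting. Mitochondrial genome genes were not analysed here.

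Estimated counts were rounded and scaled by TMM across all 6 libraries with edgeR 4.0.16 (R 4.3.3). The filter of 1 CPM used library totals. Ratios, intervals and calls (log2 ratio of at least 1 in size, 95% interval excluding 0, prior count 2) were computed in Python 3.11.15 (SciPy 1.17.1, numpy 2.4.6, pandas 2.3.3). The calculation was tested on simulated counts that held counting error only, with changes set in genes expected above 50 counts. It therefore does not cover variation between cultures or changes in scarcer genes. No test between treatments was possible with 1 library each, and variation between cultures is not measured. The comparison and the 39 lists were chosen with earlier results of these data known. Of 775 listed genes 668 were compared, 93 lay below the filter and 14 were not matched. Named genes are the 15 highest and 15 lowest ratios among regular symbols with at least 50 counts and 5 CPM in either library, up to 4 members per list with 5 CPM, 17 genes named in every case, 4 near-equal genes (within 0.25) on each side of IL4 and 5 genes each way that lay on opposite sides of IL4. The text leaves some of these out, some because they are not reported here, and adds every called member of most lists and a few uncalled members chosen after their values were seen. Alternatives were DESeq2 1.42.0 size factors, library totals, TMM over the 2 libraries or without 1,10-Phen, no filter, a CPM of 5, prior counts of 0.5 and 10, log2(FPKM + 1) and a stricter call. Calls on log2(FPKM + 1) used the 2-fold limit only, without an interval. The coordinates and promoter windows come from the RefSeq annotation, which held 99.3% of the gene IDs.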

Additional observations from a re-analysis of the deposited data

How the results depend on the processing

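No called gene among the named genes reversed its direction under the alternatives run, but the medians of 6 lists changed sign. The other called genes were not checked for a reversal. With library totals the medians of the metal response, heat shock, extracellular matrix and neutrophil lists, all -0.02, each became 0.01. With a CPM filter of 5 heat shock became 0.01, the p53 list 0.02 from -0.03 and the stromal list 0.92 from -0.11. On log2(FPKM + 1) metal response, heat shock, extracellular matrix, neutrophil and p53 medians also lay above 0, by at most 0.02. The 143 genes higher with 25-HC became 88 with a CPM filter of 5, 63 on log2(FPKM + 1) and 67 when the whole interval had to lie past a 2-fold difference. The 289 lower genes became 167, 83 and 99 under the same 3 settings, and 182 with a prior count of 10. With DESeq2 size factors the counts were 139 and 289, with library totals 152 and 276, without a filter 185 and 377, and with a prior count of 0.5 they were 153 and 305. Scaling moved the median of all genes to between -0.0046 (DESeq2 size factors) and 0.027 (library totals). Of the 76 named genes that were called, none changed sign; 74 kept the call with library totals, 72 with a prior count of 10, 63 on log2(FPKM + 1) and 61 under the stricter call. Lrp8 and Pla2g15 lost it with library totals, and Lrp8, Ptger4, P2ry14 and Vcan with a prior count of 10. The losses on log2(FPKM + 1) included Stard4, Lrp8, Acsl3, Irf1, Slc6a9, Tk1, Nuf2 and Scn3a. Adding 1 shrinks a ratio, most where FPKM is low. Before it was added, FPKM with betulin and 25-HC was 0.77 and 0.05 for Scn3a and 0.49 and 1.81 for Slc6a9. For Stard4 it was 2.93 and 1.26, and for Nuf2 15.18 and 7.17. The part of the added 1 in the losses was not tested. No paired analysis was possible because each treatment has 1 library. For the same reason no library could be left out of the comparison. Depth limits the scarce genes: P2ry12, for example, rests on 30 and 4 counts.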

Other observations

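Gene families were read by symbol after their values were seen, so the counts below are descriptions. All 8 Ms4a genes compared, a cluster of tetraspan membrane proteins on chromosome 19, lay below 0, with 4 called lower with 25-HC and a median of -0.98. Ms4a4a stood at 17.6 CPM with 25-HC and 75.1 with betulin, against 181 with IL4 alone, a ratio of -2.08 [-2.25, -1.93]. The Ms4a genes are close paralogs, so their separate values are uncertain. Of 5 secreted RNase A family genes on chromosome 14, 4 were lower with 25-HC. Rnase4 was at 16.9 against 70.9 CPM, a ratio of -2.06 [-2.23, -1.90], and Ang, angiogenin, at 1.55 against 5.06. Rnase4 and Ang overlap and can share reads. The 4 Fc gamma receptor genes, their signalling chain Fcer1g and the neonatal receptor Fcgrt all lay below 0, and the inhibitory receptor Fcgr2b, at 134 against 290 CPM and -1.12 [-1.19, -1.06], and Fcgr4, at -1.20, were called. Of 11 regulators of G protein signalling, Rgs1 at 1.05, Rgs2 at 1.00 and Rgs16 were higher with 25-HC. Rgs1 stood at 557 CPM with 25-HC, 269 with betulin and 95.2 with IL4 alone.

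Several housekeeping families had most of their members on 1 side of 0, with few calls. Of 77 cytosolic ribosomal protein genes 73 lay below 0, with a median of -0.27, and Rpl39 was the only call, lower with 25-HC at -1.09. Of 36 subunits of respiratory complex I 35 lay below 0, also with a median of -0.27 and no call. The 39 proteasome genes had a median of -0.04 and the 78 mitochondrial ribosomal genes -0.06. Of 336 zinc finger genes named Zfp 234 lay above 0, with a median of 0.16, against 5933 of the 11898 genes overall. Only Zfp558, Zfp618 and Zfp966 were called, all higher, a share no larger than the 1.2% called higher among all genes. Zfp966 had 0 counts with betulin and 35 with 25-HC. Ribosomal protein genes took 3.20% of the counts of the betulin library and 2.77% of those of the 25-HC library. Rsc1a1, whose span lies inside that of Ddi2 on chromosome 4, had 62 counts with betulin and 0 with 25-HC, which makes it at least 21.3-fold lower against 3 counts. The predicted gene Gm4724 had 0 counts with betulin and 545 with 25-HC, and Gm14434 had 411 and 1. Reads of such loci may be split among overlapping or similar copies, so these 3 values are uncertain.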
